A study of Mus musculus with 15 samples.

Results

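The 36 genes described here encode the enzymes and regulators of sterol and fatty acid synthesis, and they were listed by their known roles in the pathway driven by sterol regulatory element-binding proteins (SREBPs), with earlier results of these data known. The platform annotation gave a probe set with 1 gene symbol to 35 of the 36, through 82 probe sets, out of 18193 genes measured in this way, and it listed none for Acat2, an acetoacetyl-CoA thiolase. In all 35 the mean signal of some group reached 50, the level required for testing, as it did in 11716 genes in all. Chondrocytes, the cells that make cartilage, were isolated from the long bones of CD1 mouse embryos at embryonic day 15.5, grown in monolayer and exposed for 24 hours to vehicle or inhibitor, with 3 arrays in each of 5 groups. The groups were DMSO (the vehicle), LY294002 at 10 µM (an inhibitor of the lipid kinase PI3K), UO126 at 10 µM (an inhibitor of MEK, which activates ERK), SB202190 at 10 µM (grouped with the MEK/ERK inhibitors in the series description and usually described as a p38 inhibitor) and trichostatin A (TSA, an inhibitor of histone deacetylases), whose dose has no readable unit in the labels and is not used here. All groups share the mouse stock, the stage, the culture and the 24 hours, and no step that sorted the cells is given in the sources used here.

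SREBPs are transcription factors made as membrane proteins of the endoplasmic reticulum. When sterols are scarce, Scap escorts them to the Golgi, where proteases release the part that enters the nucleus, and Insig proteins hold the complex back when sterols are plentiful. SREBP-2, from Srebf2, is best known for the enzymes that turn acetyl-CoA into cholesterol, and SREBP-1, from Srebf1, for the enzymes of fatty acid synthesis and desaturation. PI3K and Akt are known from other cells to promote this programme, and the question put here is which of its genes change with LY294002 in chondrocytes. The study mentions that LY294002 is toxic and that specific alternatives without toxicity were lacking. Whether a change with LY294002 came through PI3K was not tested.

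Values are linear MAS5 signals scaled to the same trimmed mean on every array. A member is represented by its probe set with the highest mean signal, differences are log2 of the first group minus the second ± standard error from limma, and p-values are adjusted by Benjamini-Hochberg over all 21765 probe sets tested, with a threshold of 0.05. Signals of different probe sets are not set against each other. Median signals lay between 29.8 and 40.0 on the 15 arrays, and having 3 arrays in a group limits how precise any value can be. The study's methods state that the DMSO and LY294002 cultures came from 3 independent experiments. They do not say whether an array's number marks its experiment. For the other groups the sources used here call the arrays biological replicates without saying that the cultures were separate. All p-values rest on the spread between arrays within groups, estimated over the 5 groups together. For those other groups this may not be the spread between separate cultures. In such bulk cultures, fewer cells of a type and less RNA per cell cannot be told apart. The cartilage collagen gene Col2a1 had mean signals of 5700 ± 1582 (SD, n = 3) with DMSO and 5509 ± 1032 with LY294002. It was the 1 of 7 chondrocyte markers with a negative difference between these groups. Other cell types left some signal. The fat cell genes Adipoq and Cidec, the leukocyte gene Ptprc and the endothelial gene Pecam1 stayed below 50 on every array, but with DMSO the fat cell genes Fabp4 and Lpl had means of 606 and 538, the macrophage genes Csf1r and Adgre1 145 and 131, the endothelial gene Kdr 71.6 and the muscle gene Acta1 333.

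With LY294002, 16 of the 35 members were lower and 1 was higher than with DMSO. Among all 11716 genes tested, 3.85% were lower and 5.65% higher. The median log2 difference was -0.33 over the members and 0.008 over all genes, and 34 of the 35 members had a negative difference, the exception being Scap. The genes that fell belonged to every branch of the pathway: 1 of 5 regulators, 4 of 6 mevalonate and isoprenoid enzymes, 5 of 11 squalene and sterol enzymes, 1 of 5 enzymes that make acetyl-CoA and fatty acids, and 5 of 8 enzymes of elongation, desaturation and esterification. In all 17 called members the 3 LY294002 arrays lay on 1 side of the 3 DMSO arrays, as they did in 99.2% of all called genes and 28.6% of all genes tested. Without DMSO 2 the count of members past the threshold was 11 and without LY294002 3 it was 10. The count also depended on the scaling. With arrays centred on the median of all probe sets, a choice added after seeing the data, the median of the probe sets tested moved to 0.124 and 5 members passed (Srebf1, Fdps, Lss, Acss2 and Scd1, all lower). The members' median relative to the probe sets tested was -0.33 under both scalings. It could not differ, because this centring shifts all probe sets of an array by the same amount.

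**Figure D1:**
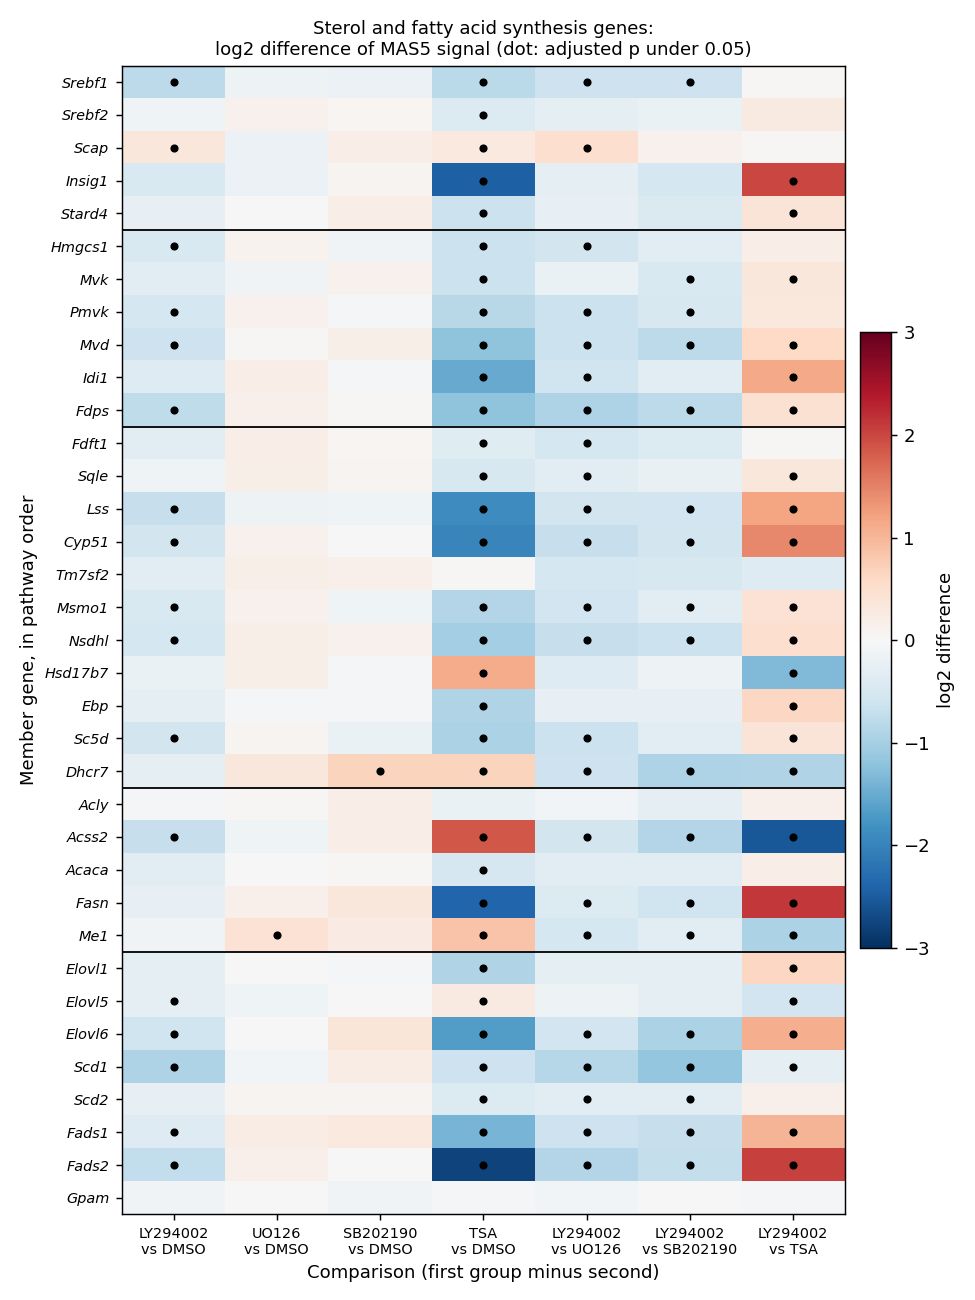
Log2 difference of the MAS5 signal for the 35 members (rows, in pathway order, with lines between regulators, mevalonate and isoprenoid steps, squalene and sterol steps, fatty acid synthesis, and elongation, desaturation and esterification) in 7 comparisons (columns, first group minus second). Dots mark an adjusted p under 0.05, and the colour scale runs from -3 (blue) to 3 (red). The LY294002 column holds 16 blue and 1 red dotted cells, the UO126 and SB202190 columns 1 each, and the TSA column 26 blue and 6 red.

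Of the regulators, Srebf1 fell. Its signals were 463, 451 and 374 with LY294002 and 803, 861 and 579 with DMSO, so that every LY294002 array was below every DMSO array. The difference was -0.79 ± 0.15, a 1.72-fold fall (adjusted p = 0.00577). Srebf2, the gene of the sterol-directed factor, had signals of 316, 357 and 427 against 332, 442 and 438, which overlapped, and its difference of -0.14 ± 0.13 did not pass (95% interval -0.42 to 0.14, adjusted p = 0.564).

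Scap, the escort, moved the other way, with signals of 587, 472 and 527 against 419.6, 421 and 417, a 1.26-fold rise (adjusted p = 0.0416). That call ended when LY294002 1 or 3 or any 1 DMSO array was left out (adjusted p 0.0675 to 0.16). The retention protein gene Insig1 spread widely, with signals of 316, 290.4 and 141 against 378, 392 and 221, and did not pass (-0.45 ± 0.29, adjusted p = 0.366). Stard4, a carrier of cholesterol between membranes, did not pass either (-0.25 ± 0.15, adjusted p = 0.315). Outside the members, Mbtps1, which encodes the protease that makes the initial cut in SREBPs, rose 1.59-fold with signals of 2081, 1923 and 1719 against 1449, 1127 and 1054 (adjusted p = 0.00209). It was 1 of 11 tested genes of sterol sensing, storage and efflux to pass, and 0 of them fell at the adjusted threshold in limma (2 at an unadjusted p under 0.05).

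The mevalonate branch carries acetyl-CoA to the isoprenoid units. Fdps, the farnesyl diphosphate synthase, had signals of 1094, 929.7 and 777 with LY294002 and 1622, 1490 and 1580 with DMSO. All LY294002 arrays were lower, by 0.76 ± 0.11 on the log2 scale in the fit, a 1.69-fold fall (adjusted p = 0.00102). Mvd, which decarboxylates mevalonate diphosphate, had 211, 167 and 178 against 297, 321 and 236, again without overlap, and fell 1.53-fold (adjusted p = 0.00967).

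Hmgcs1, the synthase that makes HMG-CoA, had 1825, 1805 and 1875 against 2132, 3053 and 2423. The LY294002 arrays were close together and below DMSO arrays that were spread out, and the fall was 1.37-fold (adjusted p = 0.0243). Pmvk, the phosphomevalonate kinase, had 195, 178 and 176 against 299, 274 and 219.8, a 1.43-fold fall (adjusted p = 0.0265). Both calls rested on single arrays: Hmgcs1 lost its call without any 1 of LY294002 1, 2 or 3 or DMSO 2 or 3 (adjusted p 0.0513 to 0.0961), and Pmvk without LY294002 2 or 3 or DMSO 1 or 2 (0.0743 to 0.0859). The 3 further tested probe sets of Hmgcs1 gave -0.39, -0.19 and -0.09, none past the threshold. The kinase gene Mvk (-0.32 ± 0.12, adjusted p = 0.104) and the isomerase gene Idi1 (-0.38 ± 0.12, adjusted p = 0.0691) did not pass without the replicate number in the fit. With the number as a block they did (adjusted p = 0.0344 and 0.0239).

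Among the enzymes from squalene to cholesterol, Lss, the cyclase that forms lanosterol, had signals of 365, 341 and 304 with LY294002 and 585, 610.1 and 456 with DMSO. It fell 1.63-fold (adjusted p = 0.0036), with no overlap. Nsdhl, a dehydrogenase that takes part in removing the C4 methyl groups of the sterol, had 457, 476 and 426 against 644, 734 and 578 and fell 1.43-fold (adjusted p = 0.0039). Its partner in that step, the methyl oxidase Msmo1, had 731, 587 and 649 against 889, 913 and 883 and fell 1.37-fold (adjusted p = 0.00793). For these 3 genes, leaving out any 1 array did not end the call.

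Sc5d, the sterol C5 desaturase, had 239.9, 257 and 211 against 377, 379 and 286, a 1.47-fold fall (adjusted p = 0.0118). Without LY294002 3 or DMSO 2 its adjusted p was 0.0514 to 0.0534. Cyp51, the lanosterol demethylase, had 696, 517 and 451 against 980.0, 719.5 and 724, groups that came within a few percent of touching, and fell 1.46-fold (adjusted p = 0.0333). Its call ended without LY294002 2 or 3 or DMSO 1 (0.0965 to 0.125). The other 6 sterol enzymes (Fdft1, Sqle, Tm7sf2, Hsd17b7, Ebp and Dhcr7) had differences from -0.33 to -0.14 and did not pass.

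Scd1, the stearoyl-CoA desaturase, changed most among the members on the log2 scale. Its signals were 711, 717 and 579 with LY294002 and 1259, 1353 and 1190 with DMSO, far apart, and the fall was 1.90-fold (-0.93 ± 0.12, adjusted p = 4.29e-04). A further probe set of Scd1 gave -1.21 (adjusted p = 0.00183). Its paralogue Scd2 did not pass by its representative probe set (-0.25 ± 0.085, adjusted p = 0.079), while its 2 further probe sets passed at -0.84 and -1.30 (adjusted p = 5.72e-04 and 0.0481), so the size of the Scd2 change depends on the probe set read.

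The desaturase genes of polyunsaturated fatty acids fell as well. Fads2 had 333, 335 and 314 against 621, 566 and 455, a 1.66-fold fall (adjusted p = 0.00885), and Fads1 had 999, 993 and 922 against 1363, 1300 and 1162, a 1.31-fold fall (adjusted p = 0.0138). Neither overlapped between groups, and the call of Fads1 ended without LY294002 3 or DMSO 2 (adjusted p 0.0507 to 0.0534). Elovl6, which lengthens palmitate to stearate, had 606, 508 and 460.0 against 822, 779 and 751 and fell 1.5-fold (adjusted p = 0.00373). Elovl5, an elongase of polyunsaturated chains, had 1309, 1294 and 1402 against 1508, 1787 and 1613, a 1.22-fold fall (adjusted p = 0.0444) whose call ended without any 1 of LY294002 1, 2 or 3 or DMSO 2 or 3 (0.0619 to 0.172). Elovl1, an elongase of very long chains, was at an adjusted p of 0.054, passed with the replicate number as a block (0.00829) and passed by 1 further probe set (-0.32, adjusted p = 0.0371).

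Of the enzymes that make acetyl-CoA and fatty acids, Acss2 alone passed. Acss2, which makes acetyl-CoA from acetate, had 78.2, 79.6 and 76.7 with LY294002 and 128, 136 and 113 with DMSO, a 1.60-fold fall without overlap (adjusted p = 0.0067). Fasn, the fatty acid synthase, had 556, 543 and 456 against 653, 615 and 571, which also did not overlap, but its difference of -0.24 ± 0.11 did not pass (adjusted p = 0.17). Acaca, the acetyl-CoA carboxylase, was at -0.31 ± 0.14 (adjusted p = 0.192). Acly, which splits citrate, was at -0.047 ± 0.10 (95% interval -0.26 to 0.17) and the malic enzyme gene Me1 at -0.095 ± 0.093 (-0.29 to 0.10). Gpam, the glycerol-phosphate acyltransferase gene of the esterification step, was at -0.11 ± 0.099 (-0.32 to 0.10). The signs of these 3 were not stable: with arrays centred on the median of all probe sets they were 0.082, 0.034 and 0.022, and Acly was also above 0 without DMSO 1 (0.041) or LY294002 3 (0.045).

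Genes of neighbouring pathways were counted beside all genes tested, of which 3.85% were lower and 5.65% higher with LY294002. Of 13 tested genes of fatty acid activation, elongation and triglyceride synthesis, 2 fell with LY294002: Acsl5, a fatty acyl-CoA ligase, with 376, 345 and 355 against 611, 579 and 602 (1.67-fold, adjusted p = 1.14e-04), and Slc25a1, the mitochondrial citrate carrier (1.26-fold, adjusted p = 0.0373; without any 1 of LY294002 1, 2 or 3 or DMSO 1 or 2, 0.0642 to 0.13). In limma, 0 of 7 fatty acid oxidation genes, 0 of 4 genes of NADPH supply and 0 of 5 genes of other isoprenoid and late sterol steps passed (1, 0 and 1 at an unadjusted p under 0.05). With shares this low over all genes, counts of 0 in lists of 4 to 7 genes do not set these lists apart. Markers of fat cells moved with these genes. The fatty acid carrier gene Fabp4 fell by 1.00 and the fat cell regulator gene Pparg by 0.77 on the log2 scale (adjusted p = 0.0284 and 0.0386), 2 of the 3 tested fat cell markers, and the summed signal of the 5 markers with a probe set was 817 to 1042 on the LY294002 arrays and 1192 to 1281 on the DMSO arrays. Adipoq and Cidec, which define mature fat cells, were below 50 throughout, Lpl did not pass (log2 difference -0.0032), and the call of Fabp4 ended without LY294002 1 or 3 or any 1 DMSO array (adjusted p 0.0556 to 0.115) and that of Pparg without any 1 LY294002 array or DMSO 2 or 3 (0.0519 to 0.141). By limma 0 of the 4 skeletal muscle markers passed (0 at an unadjusted p under 0.05), with all 4 differences negative (-0.72 to -0.44) and summed signals of 322 to 575 against 391 to 838. Of the 7 chondrocyte markers 0 passed by limma (2 higher at an unadjusted p under 0.05). Their differences ran from -0.024 to 0.59, with 6 positive, 1 negative and a median of 0.19. The part of these markers in the members' result was not tested.

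**Figure D2:**
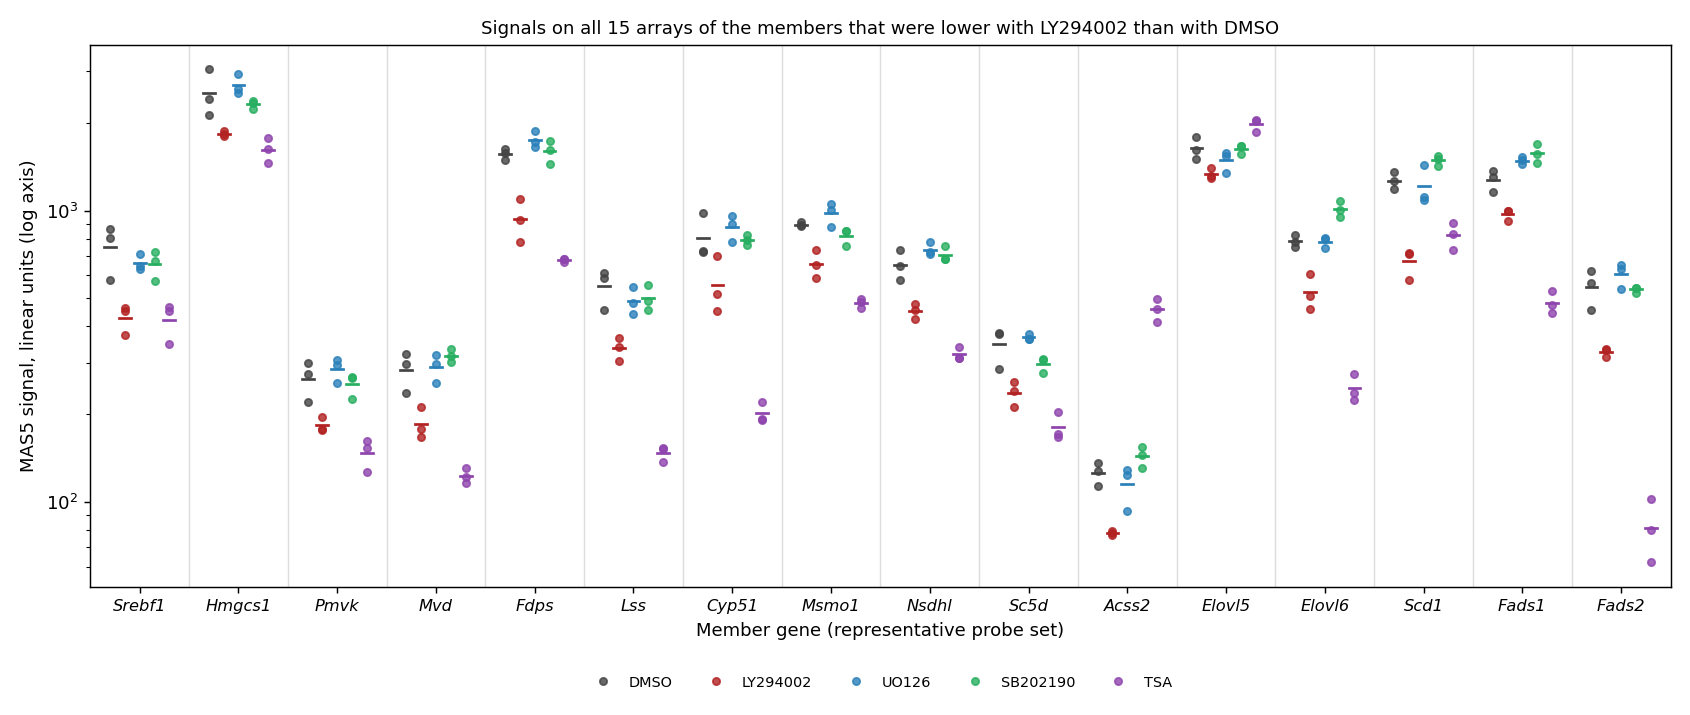
MAS5 signal (vertical log axis, linear units) on each of the 15 arrays for the 16 members that were lower with LY294002 than with DMSO. Points are arrays, coloured by group, and short lines are group means of 3 arrays. The red LY294002 points lie below all grey DMSO points of the same gene, as for Scd1 (579 to 717 against 1190 to 1353), and the purple TSA points lie lower again for 13 of the 16 genes by group mean, the exceptions being Acss2, Elovl5 and Scd1.

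The promoters of these genes were read to show what they share in sequence. RefSeq promoter windows (GRCm38.p6, 250 bases before to 50 after the start, both strands searched) were found for 29 of the 36 members. These include Acat2, which has no probe set. Scd1, Scd2, Fads1, Fdps, Fdft1, Sqle and Stard4 had no window. The shares below therefore leave out Scd1 and Fdps, which had the smallest adjusted p with LY294002 in limma, and Fads1, which also fell. The sterol regulatory element consensus TCACNCCAC was in the window of 1 of the 29, Hmgcs1, against 1.37% of the 9491 tested genes with a window. The NF-Y box CCAAT was in 24 of 29 (82.8%) against 42.7% of tested genes, and the GC box GGGCGG in 24 of 29 (82.8%) against 70.0%. No match says only that these letters are not in this window, and a match is not a bound site. Among members with a window, CCAAT was in 11 of the 13 that fell with LY294002 and in 13 of the 14 that did not pass, close shares in small sets. The stretches below are the 160 bases directly before the start of 4 genes that fell with LY294002 and with TSA (Hmgcs1, Lss, Cyp51, Nsdhl) and of 2 that rose with TSA (Hsd17b7, Acss2). They are written 5′ to 3′ on the gene's strand, and capitals mark TCACNCCAC and CCAAT, the latter also as its reverse complement ATTGG.
Hmgcs1, chr13:119690191-119690350, plus strand: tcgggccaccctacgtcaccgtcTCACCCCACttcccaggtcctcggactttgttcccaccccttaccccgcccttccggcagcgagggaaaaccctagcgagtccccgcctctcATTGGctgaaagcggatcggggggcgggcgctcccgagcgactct
Lss, chr10:76531445-76531604, plus strand: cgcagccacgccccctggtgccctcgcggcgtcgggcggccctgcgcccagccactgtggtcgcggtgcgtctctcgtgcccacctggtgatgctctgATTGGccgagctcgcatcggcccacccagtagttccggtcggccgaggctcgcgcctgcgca
Cyp51, chr5:4104698-4104857, minus strand: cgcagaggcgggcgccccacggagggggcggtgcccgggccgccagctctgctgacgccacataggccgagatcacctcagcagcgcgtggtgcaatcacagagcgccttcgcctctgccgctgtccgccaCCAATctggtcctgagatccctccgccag
Nsdhl, chrX:72918361-72918520, plus strand: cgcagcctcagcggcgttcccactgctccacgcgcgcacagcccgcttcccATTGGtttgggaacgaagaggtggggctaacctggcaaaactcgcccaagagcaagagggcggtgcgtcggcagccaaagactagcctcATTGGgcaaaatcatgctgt
Hsd17b7, chr1:169969206-169969365, minus strand: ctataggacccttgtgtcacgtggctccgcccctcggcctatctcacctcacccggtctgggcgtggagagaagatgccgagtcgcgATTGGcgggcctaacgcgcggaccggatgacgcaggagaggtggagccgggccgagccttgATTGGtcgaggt
Acss2, chr2:155517883-155518042, plus strand: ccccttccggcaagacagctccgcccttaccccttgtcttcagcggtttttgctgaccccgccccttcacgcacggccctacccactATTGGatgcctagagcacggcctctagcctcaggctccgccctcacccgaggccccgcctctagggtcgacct

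With UO126, few members differed from DMSO past the threshold: 1 of the 35 members was higher and 0 were lower by limma (at an unadjusted p under 0.05, 4 were higher and 0 lower), against 1.89% and 1.57% of all genes, and the median difference was 0.092 over the members and 0.011 over all genes. The member that passed was Me1, whose enzyme makes NADPH for fatty acid synthesis, with signals of 1083, 987 and 1278 against 835, 820.3 and 819.8. These groups did not overlap (19.2% of all genes tested did not), and the rise was 1.34-fold (adjusted p = 0.0212), but the call ended without UO126 1 or 3 or any 1 DMSO array (0.0504 to 0.0997). With the replicate number as a block, 2 members passed, Me1 and Dhcr7 (0.35 ± 0.10 without the block, adjusted p = 0.0876, and 0.0298 with it). The genes that fell most with LY294002 had UO126 differences of -0.076 for Scd1 (95% interval -0.32 to 0.17), -0.16 for Srebf1 (-0.48 to 0.16) and 0.16 for Fdps (-0.064 to 0.39), none past the threshold. Of the fat cell markers, Lpl, the lipoprotein lipase gene, rose 1.88-fold with UO126 (adjusted p = 0.00355), while the differences of Fabp4 (-0.22) and Pparg (-0.20) were negative and did not pass.

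SB202190 raised 1 member and lowered 0 by limma (at an unadjusted p under 0.05, 5 were higher and 0 lower), against 2.01% and 1.52% of all genes, with a median of 0.066 over the members and 0.025 over all genes. That member was Dhcr7, the reductase that completes cholesterol. Its signals were 532, 533 and 542 with SB202190 and 387, 342 and 289.8 with DMSO, far apart, and the rise was 1.59-fold (0.67 ± 0.10, adjusted p = 0.00242). No 1 array, when left out, ended the call. Elovl6 (0.36 ± 0.10, adjusted p = 0.0732), Fads1 (0.30 ± 0.087, 0.0784) and Fasn (0.34 ± 0.11, 0.103) lay above DMSO without overlap and did not pass. Separation of the SB202190 and DMSO arrays, in either direction, was found in 10 members and in 23.2% of all genes tested. It therefore does not set these genes apart.

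Of 7 fatty acid oxidation genes tested, 2 rose with SB202190, in a comparison where 2.01% of all genes rose. Cpt1a, which admits long-chain fatty acids to mitochondria, rose 1.41-fold (adjusted p = 0.0452) and Acadl, a long-chain acyl-CoA dehydrogenase, 1.30-fold (0.0397). Lpin1, a phosphatidate phosphatase, rose 1.5-fold (0.0432), 1 of 13 tested genes of fatty acid activation, elongation and triglyceride synthesis. Pgd, a dehydrogenase of the pentose phosphate route, rose 1.32-fold (0.014), 1 of 4 tested genes of NADPH supply. Each of these 4 calls ended without single arrays: Cpt1a without SB202190 1 or 2 or any 1 DMSO array (0.0589 to 0.198), Acadl without any 1 SB202190 array or DMSO 2 or 3 (0.0783 to 0.158), Lpin1 without any 1 of the 6 arrays (0.0768 to 0.184) and Pgd without SB202190 1 (0.0663). The summed signal of the 5 fat cell markers was 1696 to 2023 on the SB202190 arrays against 1192 to 1281 with DMSO, and its part in these values was not tested.

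The comparisons with DMSO share the DMSO arrays, so LY294002 was also set directly against UO126 and SB202190. Against UO126, 22 of the 35 members were lower and 1 was higher with LY294002 (3.83% and 4.37% of all genes), with a member median of -0.53 and a median of 4.5e-04 over all genes. Against SB202190, 18 were lower and 0 higher by limma (29 and 0 at an unadjusted p under 0.05, 3.78% and 3.62% of all genes at the adjusted threshold), with medians of -0.44 and -0.017. Called members did not overlap between groups in either comparison, as was so for 99.7% and 99.5% of all called genes and 29.3% and 29.1% of all genes tested. Under centring on the median of all probe sets 7 and 8 members passed. The member median relative to the probe sets tested was -0.54 and -0.43 under both scalings, which this centring cannot change.

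Scd1 and Fdps were lower in both tests. The Scd1 signals of 711, 717 and 579 with LY294002 lay below 1088, 1431 and 1112 with UO126 and 1505, 1536 and 1424 with SB202190. The differences were -0.85 ± 0.12 (adjusted p = 5.82e-04) and -1.16 ± 0.12 (4.58e-05). For Fdps, the UO126 signals were 1877, 1654 and 1722 and the SB202190 signals 1443, 1732 and 1617, all above the LY294002 arrays, with differences of -0.92 ± 0.11 (1.58e-04) and -0.78 ± 0.11 (5.55e-04).

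Dhcr7, which did not pass against DMSO with LY294002 (-0.26 ± 0.10, adjusted p = 0.127), did so here. It had 302, 285 and 259 with LY294002, 446, 424 and 420.2 with UO126 and 532, 533 and 542 with SB202190, 3 groups without overlap. The differences were -0.61 ± 0.10 against UO126 (0.00238) and -0.93 ± 0.10 against SB202190 (1.12e-04). Fasn likewise passed in both, with 728, 676 and 645 with UO126 (-0.40 ± 0.11, 0.0341) and 847, 826 and 671 with SB202190 (-0.59 ± 0.11, 0.00373). Other members past the threshold in both tests and without overlap were Srebf1, Pmvk, Mvd, Lss, Cyp51, Msmo1, Nsdhl, Acss2, Me1, Elovl6, Scd2, Fads1 and Fads2.

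Members that passed against UO126 alone were Hmgcs1, Idi1, Fdft1, Sqle, Sc5d and, in the upward direction, Scap (0.51 ± 0.093, adjusted p = 0.00479). Mvk passed against SB202190 alone. Whether UO126 and SB202190 differ in these genes was not tested. Leaving out 1 array ended 8 of the 23 calls against UO126 (Srebf1, Fdft1, Sqle, Lss, Cyp51, Acss2, Fasn and Scd2, adjusted p 0.0511 to 0.124) and 8 of the 18 against SB202190 (Srebf1, Mvk, Pmvk, Lss, Cyp51, Msmo1, Me1 and Scd2, 0.0516 to 0.191), and every one of the 9 arrays of these groups ended at least 1 of them. Against SB202190 the count was 11 without LY294002 2 or SB202190 1 and 10 without LY294002 3 or SB202190 2. Markers of fat cells were lower with LY294002 in these tests: Fabp4, Lpl and Pparg all passed against SB202190 (-1.39, -0.72 and -1.51) and Lpl against UO126 (-0.91). Mean Lpl signals were 537 with LY294002 and 538 with DMSO, but 1025 with UO126 and 882 with SB202190. Means with SB202190 were also above DMSO for Fabp4 (801 against 606) and Pparg (124 against 74.5). The muscle gene Acta1 was lower in both (-1.14 against UO126, -1.16 against SB202190), 1 of 4 muscle markers, with list medians of -0.89 and -1.04 and all 4 differences negative. Its calls ended without LY294002 2 or 3, UO126 1 or 2 (adjusted p 0.0783 to 0.0922) and LY294002 2 or 3, SB202190 1 or 2 (0.0721 to 0.114). Of the 7 chondrocyte markers, Comp (0.85) and Matn1 (0.67) were higher than with SB202190, with a list median of 0.57, and those calls ended without any 1 of the 6 arrays for Comp (0.0504 to 0.143) and without LY294002 1 or 3 or SB202190 1 or 2 for Matn1 (0.0944 to 0.152). The part of these markers in the members' result was not tested.

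**Figure D3:**
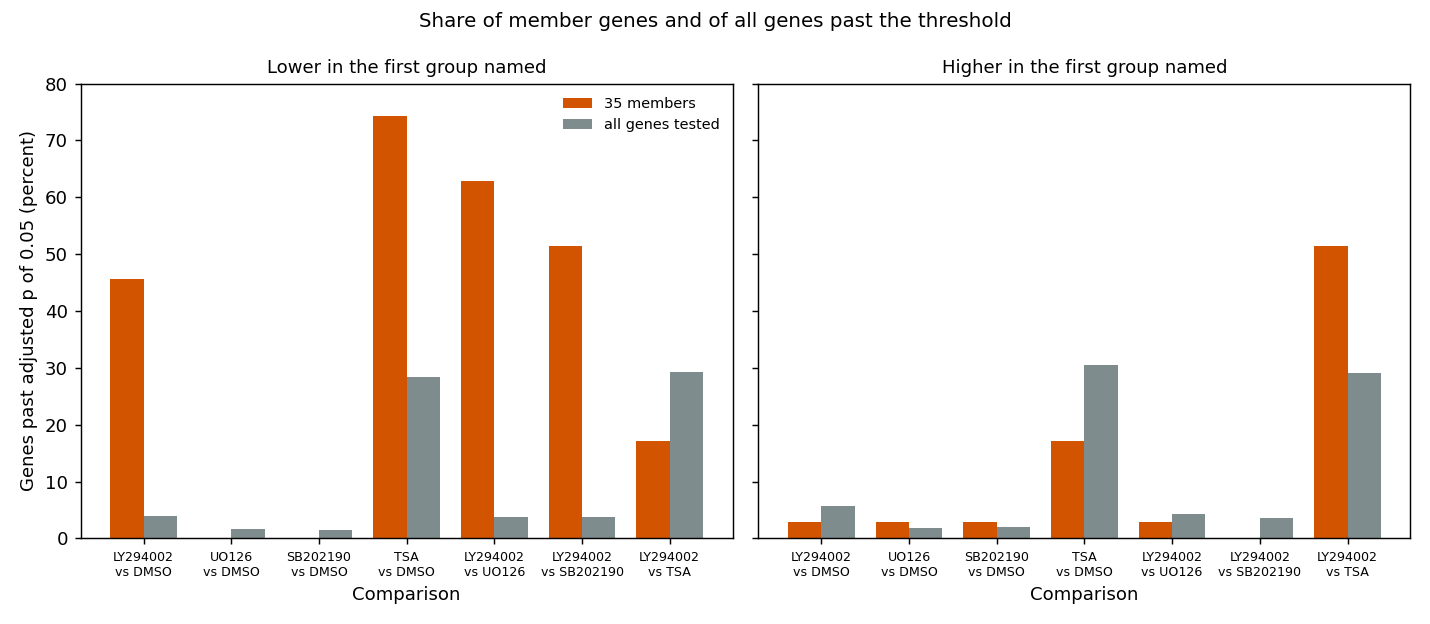
Percentage of the 35 members (orange) and of all 11716 genes tested (grey) that were lower (left) or higher (right) in the first group named, at an adjusted p under 0.05, in 7 comparisons. Both vertical axes start at 0. Lower members made up 45.7% with LY294002 and 74.3% with TSA against DMSO, where lower genes made up 3.85% and 28.4% of all genes.

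Most members differed with TSA: 26 of the 35 members were lower and 6 higher than with DMSO. TSA moved much of the transcriptome, with 28.4% of all genes lower and 30.4% higher. The median difference was -0.65 over the members and -0.0013 over all genes. All 6 tested mevalonate enzymes fell, as did 8 of 11 squalene and sterol enzymes, 4 of 5 regulators, 6 of 8 enzymes of elongation, desaturation and esterification, and 2 of 5 of fatty acid synthesis. None of the 32 called members overlapped between groups, against 96.4% of all called genes and 63.2% of all genes tested without overlap. Leaving out 1 array ended 2 calls: Srebf2 without TSA 3 or DMSO 2 or 3 (adjusted p 0.0613 to 0.066) and Fdft1, the squalene synthase gene, without TSA 2 or DMSO 2 (0.0582 to 0.074). In the same arrays 6 of 7 chondrocyte markers fell, among them the cartilage proteoglycan gene Acan (log2 difference -2.26) and the matrilin gene Matn1 (-3.27). The summed signal of the 7 markers was 10362 to 11872 with TSA and 16115 to 24578 with DMSO, while Col2a1 was at 5634 ± 769 against 5700 ± 1582. The skeletal muscle markers fell too, 3 of 4, with a summed signal of 136 to 198 against 391 to 838. Of the macrophage markers, 1 rose and 2 fell. The part of these shifts in the members' result was not tested.

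Insig1 fell furthest among the regulators. Its signals were 74.9, 45.3 and 59.5 with TSA and 378, 392 and 221 with DMSO, a 5.46-fold fall (-2.45 ± 0.29, adjusted p = 3.11e-06). Its homologue Insig2, not a member, moved the opposite way, with 1091, 1256 and 1200 against 503, 469 and 633, a 2.22-fold rise (adjusted p = 2.54e-06). Both pairs of groups were well apart, although the TSA level of Insig1 is near the signal of 50 below which sizes are imprecise. Srebf1 had 453, 468 and 347 against 803, 861 and 579 and fell 1.76-fold (2.62e-04). Srebf2 had 328, 302 and 275 against 332, 442 and 438, just short of touching, and fell 1.33-fold (0.0147). The further tested probe set of Srebf2 fell more, with a log2 difference of -0.90 ± 0.096 (1.25e-06). Stard4 fell 1.55-fold (0.00172), and Scap rose 1.23-fold (0.0117).

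The sterol enzymes fell by very different amounts. Cyp51 had 193, 191 and 219.8 with TSA against 980.0, 719.5 and 724 with DMSO, a 3.98-fold fall (adjusted p = 2.53e-08), and Lss had 153, 137 and 152 against 585, 610.1 and 456, a 3.71-fold fall (6.00e-09). Idi1, the isomerase of the isoprenoid unit, had 376, 331 and 344 against 1117, 1124 and 803, a 2.87-fold fall (6.64e-08). In these genes the highest TSA array was far below the lowest DMSO array. Fdps fell 2.31-fold to 664, 684 and 684 (1.60e-07), Mvd 2.30-fold to 131, 116 and 122 (1.19e-06) and Nsdhl 2.02-fold to 339, 312 and 311 (2.11e-07). Smaller falls were those of Hmgcs1 (1.55-fold, 1.83e-04), Sqle, the squalene epoxidase gene (1.39-fold, 8.22e-05), and Fdft1 (1.29-fold, 0.012).

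The last part of the sterol route held the exceptions. Hsd17b7, a ketosteroid reductase of the C4 demethylation, had 541, 452 and 534 with TSA against 237, 273 and 199 with DMSO and rose 2.17-fold (adjusted p = 7.44e-06). Dhcr7 had 573, 491 and 531 against 387, 342 and 289.8 and rose 1.57-fold (5.29e-05). Both rose while Ebp (1.88-fold, 1.58e-06), Sc5d (1.92-fold, 7.43e-06) and Msmo1 (1.86-fold, 7.91e-07), which act in the same stretch of the route, fell. Tm7sf2, a sterol reductase gene, did not pass (0.043 ± 0.25, 95% interval -0.48 to 0.57). Of 2 further tested probe sets of Hsd17b7, 1 passed at 1.29 (1.97e-06) and 1 did not (0.29, 0.248), both in the same direction. The 2 further tested probe sets of Sc5d did not pass (-0.0088, 0.972 and -0.25, 0.6), so its fall rests on the representative.

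Fatty acid genes showed the widest range. Fads2 had 80.2, 62.2 and 102 with TSA against 621, 566 and 455 with DMSO, a 6.80-fold fall (adjusted p = 9.63e-10). Fasn had 113, 114 and 127 against 653, 615 and 571, a 5.19-fold fall (1.24e-10). Elovl6 had 237, 275 and 224 against 822, 779 and 751, a 3.20-fold fall (3.38e-09). In these 3 genes every TSA array was far below every DMSO array. The sizes depended on the probe set read: the further probe set of Fads2 gave a log2 difference of -1.51 in place of -2.77, that of Fads1 -0.53 in place of -1.40 and that of Lss -0.99 in place of -1.89, all past the threshold. Fads1 fell 2.64-fold (3.72e-09), Elovl1 1.86-fold (4.65e-07), Scd1 1.54-fold (2.89e-04), Acaca 1.42-fold (0.00619) and Scd2 1.33-fold (7.27e-04). For Scd1 and Scd2 the further probe sets fell more and passed. That of Scd1 gave -1.03 in place of -0.62. Those of Scd2 gave -0.99 and -1.47 in place of -0.41.

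Acss2 moved against them. Its signals were 497, 415 and 461 with TSA and 128, 136 and 113 with DMSO, a 3.64-fold rise with a wide gap between groups (1.87 ± 0.13, adjusted p = 1.66e-08), and its further tested probe set rose as well (2.14, 1.53e-04). Me1 had 1419, 1543 and 1491 against 835, 820.3 and 819.8 and rose 1.80-fold (1.74e-06). Elovl5 had 2038, 2031 and 1865 against 1508, 1787 and 1613, a narrow gap, and rose 1.21-fold (0.0106). Acly (-0.20 ± 0.10, 0.112) and Gpam (-0.053 ± 0.099, 0.676) did not pass. In the promoter windows, CCAAT was in 16 of the 19 members with a window that fell with TSA and in 5 of the 6 that rose, as in the stretches of Hsd17b7 and Acss2 printed above.

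**Figure D4:**
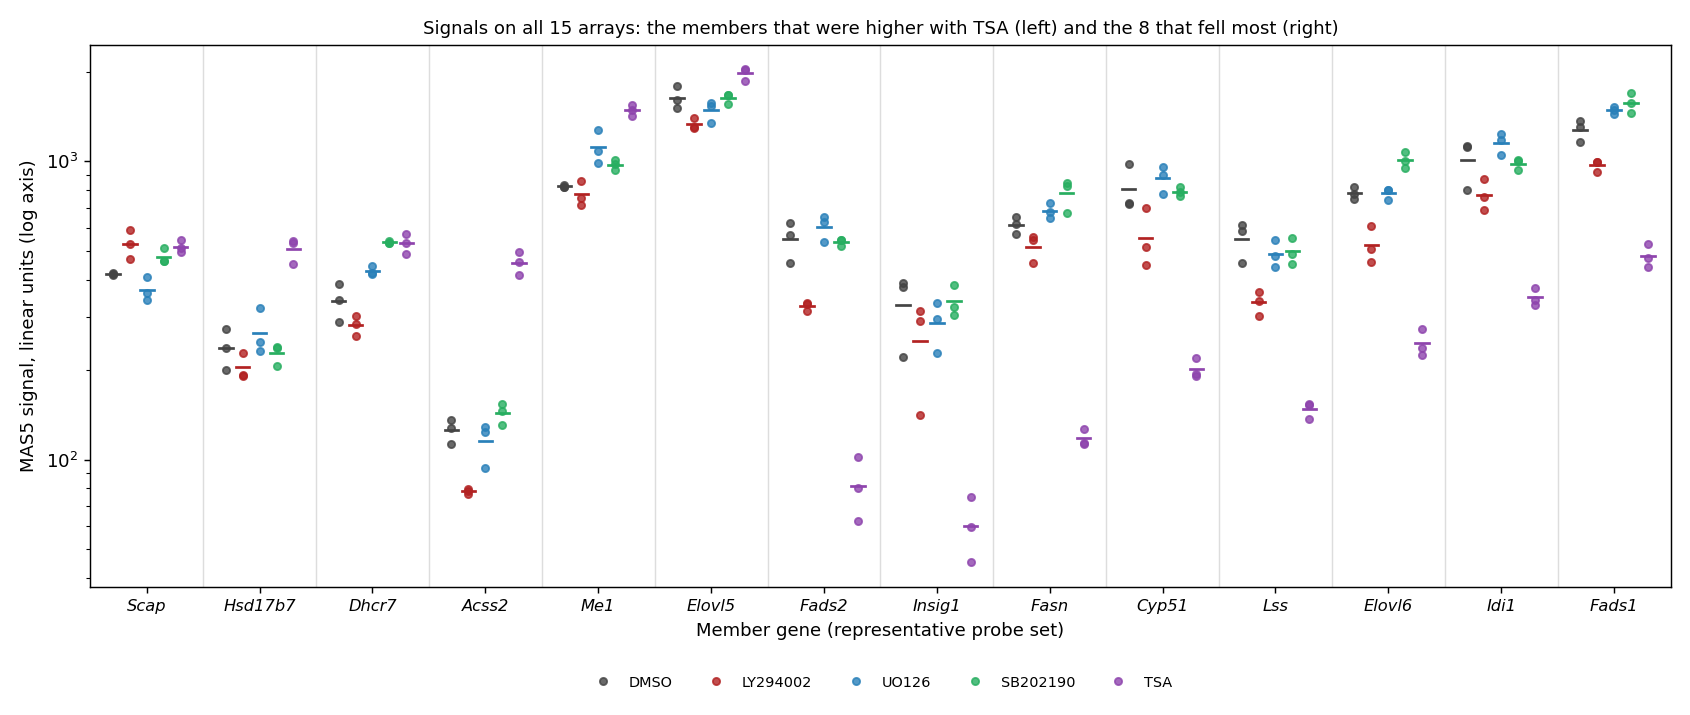
MAS5 signal (vertical log axis, linear units) on each of the 15 arrays for the 6 members that were higher with TSA than with DMSO (left) and the 8 that fell most (right). Points are arrays, coloured by group, and short lines are group means of 3 arrays. The purple TSA points of Acss2 lie at 415 to 497 against 113 to 136 for DMSO, and those of Fads2 at 62.2 to 102 against 455 to 621.

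Several genes that break down or store fatty acids rose with TSA. Of 7 fatty acid oxidation genes tested, 5 rose and, by limma, 0 fell (0 also at an unadjusted p under 0.05), among them Cpt1a (2.37-fold, adjusted p = 6.14e-07) and Acadvl, a very-long-chain acyl-CoA dehydrogenase (2.14-fold, 2.94e-08), in a comparison where 30.4% of all genes rose. Of 13 genes of activation, elongation and triglyceride synthesis, 7 rose and 2 fell. Dgat2, an enzyme of the final step to triglyceride, rose 2.91-fold (5.87e-09), the elongase gene Elovl7 4.57-fold from a DMSO mean of 48 ± 13 (7.90e-08), and Acsl5 fell 4.58-fold (1.48e-11). Lipa, the lysosomal lipase gene, rose 2.58-fold (7.29e-08). It was 1 of 3 genes to rise among 11 of sterol sensing, storage and efflux. That share of 27.3% is near the 30.4% of all genes and does not set this list apart. NADPH genes divided, with Taldo1 (2.10-fold, 4.83e-07) and Pgd (1.36-fold, 2.25e-04) higher and Idh1 (1.89-fold, 1.69e-05) and Tkt (1.60-fold, 0.00277) lower.

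Set directly against TSA, LY294002 left 18 members higher and 6 lower (29.0% and 29.3% of all genes), with a median of 0.33 over the members and -0.018 over all genes. Among the members higher with LY294002 were 4 that fell far with TSA: Fasn by 2.13 ± 0.11 (adjusted p = 3.87e-10), Fads2 by 2.04 ± 0.15 (2.37e-08), Insig1 by 2.00 ± 0.29 (2.59e-05) and Cyp51 by 1.44 ± 0.15 (8.38e-07) on the log2 scale. The 6 that were lower with LY294002 were Acss2, Hsd17b7, Me1, Dhcr7, Elovl5 and Scd1. The Acss2 signals of 78.2, 79.6 and 76.7 with LY294002 and 497, 415 and 461 with TSA lay on opposite sides of the DMSO signals of 128, 136 and 113, and the difference was -2.55 ± 0.13 (6.23e-10). Elovl5 was likewise below DMSO with LY294002 and above it with TSA, and differed by -0.57 ± 0.083 (3.46e-05). The difference in Srebf1 did not pass (0.029 ± 0.15, 95% interval -0.29 to 0.35, adjusted p = 0.887). Srebf2 and Hmgcs1 did not pass by their representative probe sets but did so by further ones. The further probe set of Srebf2 was higher with LY294002 by 0.79 (adjusted p = 5.07e-06). Of the markers, 6 of 7 for chondrocytes and 3 of 4 for muscle were higher with LY294002 than with TSA, and their part in these values was not tested. Leaving out 1 array ended 4 of the 24 calls: Stard4 without LY294002 1 or 2 or TSA 1 or 2 (0.103 to 0.128), Mvk without LY294002 1 or 2 or TSA 3 (0.0627 to 0.114), Sc5d without LY294002 2 or TSA 1 (0.0519 to 0.0585) and Scd1 without LY294002 3 or TSA 1 or 2 (0.0848 to 0.176).

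The same could be seen array by array. Taken against the DMSO mean of each gene, the median log2 value over the 35 members was 0.07, 0.06 and -0.1 on the DMSO arrays, -0.29, -0.36 and -0.42 with LY294002, 0.07, 0.07 and 0.08 with UO126, 0.07, 0.06 and 0.06 with SB202190, and -0.69, -0.65 and -0.79 with TSA. Over all genes tested the same median stayed between -0.006 and 0.033 on the 15 arrays. The LY294002 and TSA arrays were below every other array, and the DMSO array with the lowest member median, DMSO 3, was still above all of them. The 17 mevalonate and sterol enzymes gave medians of -0.29, -0.42 and -0.46 with LY294002 and the 13 fatty acid enzymes -0.32, -0.33 and -0.4, ranges that overlap, whereas with TSA they were -0.78, -0.88 and -0.91 against -0.6, -0.33 and -0.66.

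The 35 genes had 30 further tested probe sets. For the 17 members called with LY294002 there were 14 further probe sets, all 14 with the sign of the call and 4 past the threshold, and Elovl1 and Scd2 passed by a further probe set alone. For the 32 called with TSA there were 27, all 27 with the same sign and 23 past the threshold. No further probe set passed in the opposite direction in any of the 7 comparisons.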

How the data were processed

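Total RNA of 15 chondrocyte samples, 3 for each of 5 groups, was hybridized to Affymetrix MOE 430 2.0 arrays. The authors deposited 1 table of MAS5 signal intensity for 45101 probe sets, which is linear and scaled to a mean of 150.0 on every array (2% of the values trimmed at each end). No detection calls were used, so signal level is the only guide to precision. The platform annotation listed a single symbol for 34958 probe sets, several for 932 and none for 9211. The 64 control probe sets were left out.

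A probe set was tested when the mean signal of at least 1 group reached 50. After log2 transformation, with a floor of 1 for lower signals, limma 3.58.1 (R 4.3.3) fitted all 15 arrays together, with a term for each of the 5 groups and a variance trend. Two-sided p-values were adjusted with the Benjamini-Hochberg method across 21765 probe sets, separately in each of 7 comparisons. The fit was tested on simulated data. A gene was read by its probe set with the highest mean log2 signal, and 1 probe set shared by Acss2 and another symbol was not used. All members are named, in role order, with array values for up to 6 per role and comparison, and of related lists up to 4 genes past the threshold. The members and lists were chosen with earlier results of these data known, so no pattern is independent support.

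Arrays of the same number were taken as paired where each of the 3 correlations of their deviations from the group means was over 0.1. This held for LY294002 with DMSO (0.42, 0.16 and 0.3), UO126 with DMSO (0.42, 0.23 and 0.22) and LY294002 with UO126 (0.34, 0.17 and 0.22), and not for the other comparisons. In those the correlations were also positive, from 0.02 to 0.23. The pairing is a hint from the data, since the labels give the numbers no meaning. The main fit held no term for the number, so its p-values leave any pairing out. The number was used as a block only as an alternative.

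Alternatives were quantile normalization, centring each array, other filters, a pseudocount of 16, a floor of 50, no variance trend, the 2 groups alone, the replicate number as a block, averaging the probe sets of a gene, a 1.4-fold ratio of group means and leaving out each array.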

Additional observations from a re-analysis of the deposited data

How the results depend on the processing

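With arrays centred on the median of all probe sets, chosen after seeing the data, 5 members passed for LY294002 against DMSO, 0 for UO126 against DMSO, 7 for LY294002 against UO126 and 8 for LY294002 against SB202190. This centring moved the median of the probe sets tested by 0.128 for LY294002 against DMSO, 0.106 against UO126 and 0.122 against TSA, and turned the split of higher and lower probe sets for LY294002 against DMSO from 969 and 724 to 1021 and 170, against UO126 from 781 and 658 to 626 and 180, against SB202190 from 669 and 657 to 499 and 217 and against TSA from 5731 and 5885 to 6340 and 4166. Relative to the probe sets tested, the median of the members was the same under both scalings. This holds by construction, since the centring subtracts the same value from every probe set of an array. For LY294002 against DMSO the sign reversed for Acly (0.082), Me1 (0.034) and Gpam (0.022) under this centring and for Acly without DMSO 1 (0.041) or LY294002 3 (0.045). None of these had passed, and leaving out 1 array gave Acly values from -0.15 to 0.045. With only the 2 groups compared in the fit, which leaves fewer arrays, 7 members passed for LY294002 against DMSO and 0 for UO126. For UO126 the count was also 0 without a variance trend and 0 at a 1.4-fold ratio of means, and for SB202190 it was 2 with the probe sets of a gene averaged. The cause was not tested beyond the construction of each alternative.

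With the replicate number as a block, the counts for the paired comparisons were 20 for LY294002 against DMSO, 2 for UO126 against DMSO and 24 for LY294002 against UO126, and beyond the gains of Mvk, Idi1 and Elovl1 (LY294002 against DMSO), Dhcr7 (UO126) and Elovl1 (LY294002 against UO126) the block changed no member's call there. Where the arrays were not taken as paired, the block gave 4 for SB202190 against DMSO, 32 for TSA against DMSO, 22 for LY294002 against SB202190 and 25 against TSA. For all 15 of 15 arrays, the deviations from the group means correlated best, on average, with arrays of the same number in the other groups. That includes the SB202190 and TSA arrays, and it is a hint from the data and not the design. Leaving out 1 array gave 10 to 16 members for LY294002 against DMSO, 0 to 1 for UO126, 1 to 2 for SB202190, 30 to 32 for TSA, 16 to 22 for LY294002 against UO126, 10 to 17 against SB202190 and 21 to 24 against TSA. With 3 arrays per group and no depth beyond the signal, small differences in dim probe sets were not detectable.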
